A study of Rattus norvegicus with 52 samples.

Results

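The drug-metabolizing cytochrome P450 genes Cyp1a1, Cyp1a2 and Cyp2e1 of rat liver were read by 5 of the 8740 non-control probe sets on the arrays of this series. A probe set is a group of short oligonucleotides that together report 1 transcript, and its ID begins with the GenBank accession it was designed from. IDs that begin with 7 accessions of these genes were looked up, and 5 of the 7 were found. Cyp1a1 was represented by e00717utr#1_s_at, Cyp1a2 by m26127_s_at and e01184cds_s_at, and Cyp2e1 by m20131cds_s_at and s48325_s_at. Accessions x00469 (Cyp1a1) and k02422 (Cyp1a2) began no ID and are not analysed here. All 5 IDs carry the suffix _s_, which in this naming marks a probe set that can match more than 1 transcript, so signal from close relatives of a gene cannot be told apart from its own.

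The samples were liver sections of F344 rats that were either untreated or given clofibric acid (CA) at 0.29 or 0.54%, with 1 array for each of 52 samples. CA is the active form of the lipid-lowering drug clofibrate and an activator of the nuclear receptor PPARα. Of the entire sections 8 were from untreated rats, 8 from rats at 0.29% CA and 6 from rats at 0.54% CA; of the stained sections 8, 7 and 5. A single array per dose stands for dehydrated sections and for sections labelled as an LCM reference time (LCM is laser capture microdissection, the isolation of chosen regions of a section under a microscope). Microdissected liver has 2 untreated samples and a lone sample for either dose. How and how long CA was given, which cells were microdissected and whether replicates are separate animals is not stated in the labels, so the spread behind each p-value is that between samples and may be technical in part.

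Drug-metabolizing cytochromes P450 such as these are heme enzymes of the endoplasmic reticulum. They add oxygen to fatty substances, drugs and pollutants, with electrons passed on by NADPH-cytochrome P450 reductase. Cyp1a1 and Cyp1a2 are the classic targets of the aryl hydrocarbon receptor: Cyp1a2 is made constitutively in hepatocytes and handles caffeine and aromatic amines, whereas Cyp1a1 is scarce in liver until an inducer is given. Cyp2e1 oxidizes ethanol, acetaminophen, acetone and other small molecules, and hepatocytes around the central vein hold most of the hepatic Cyp1a2 and Cyp2e1.

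The start regions of both genes that carried strong signal are shown for orientation, as the array reads the RNA made from them. They come from the RefSeq promoter table of build GRCr8, which had an entry for 2 of the 3 genes, and run from 100 bases before to 50 bases after the listed start. Capitals mark the TATA box motif TATAAA. The Cyp1a2 stretch lies at chr8:66978100-66978249 on the minus strand and the Cyp2e1 stretch at chr1:205269867-205270016 on the plus strand.
Cyp1a2: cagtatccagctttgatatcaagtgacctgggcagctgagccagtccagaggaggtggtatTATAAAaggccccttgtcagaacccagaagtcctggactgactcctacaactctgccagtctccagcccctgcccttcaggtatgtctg
Cyp2e1: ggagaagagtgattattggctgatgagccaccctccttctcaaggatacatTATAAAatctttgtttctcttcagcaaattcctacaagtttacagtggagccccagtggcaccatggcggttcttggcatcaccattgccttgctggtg
TATAAA begins 39 bases before the listed start of Cyp1a2 and 49 bases before that of Cyp2e1. Searched on both strands of the 300-base windows of the table, this motif was held by 14.2% of 33469 promoters. GCGTG, the core of the element bound by the aryl hydrocarbon receptor, was held by 29.7% of them and by neither of these windows, which says only that those letters are not in them. In the RefSeq gene table, 0 genes are listed between Cyp1a1 and Cyp1a2, so the Cyp1a genes are neighbours.

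The 5 probe sets covered a wide range of deposited intensity, which is the linear value given for each probe set and can be negative. Of the values of an array, 20.6 to 26.0% were negative on entire-section arrays and 20.9 to 29.1% on stained ones. Cyp2e1 was among the brightest probe sets of the liver: m20131cds_s_at ranked between 4 and 29 of 8740 on the 22 entire-section arrays, and s48325_s_at between 10 and 90. Cyp1a2 probe set m26127_s_at ranked between 282 and 902 on the same arrays and e01184cds_s_at between 440 and 1297. Brightness differs with the probe sequence, so these ranks set no order of RNA amounts between genes. Other liver markers could not be looked up to check the labelled tissue, because the table pairs no probe set with a gene name.

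For comparisons, intensities were raised to a floor of 4, put on a log2 scale and quantile normalized, which gives all arrays 1 distribution of values. Where a value is called a log2 intensity, a log2 difference or a fold it refers to this normalized scale, and a plain intensity is as deposited. The deposited scale, used as an alternative, is the log2 value after the same floor with each array centred on its own median. A probe set was called when its limma test, adjusted over all probe sets of a comparison by the Benjamini-Hochberg method, gave an adjusted p under 0.05. The 3' to 5' ratio of the GAPDH control probe sets, a sign of shortened RNA or cDNA when high, had a median of 1.54 on entire-section arrays (1.18 to 6.49), 8.45 on stained (2.59 to 18.9), 11.8 on dehydrated, 4.70 on LCM-reference-time and 7.71 on microdissected arrays. Arrays were put in doubt by a limit set for their own preparation. On 3 entire-section arrays this ratio was above 4, and on 3 stained arrays the 5S rRNA control was above 200. The GAPDH limit was not applied to stained arrays, whose median was above it. No limit was applied to LCM-reference-time or microdissected arrays, where the 5S rRNA control read 117 to 587 and 97 to 754. Leaving out the 6 arrays in doubt is reported where it changed a call.

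**Figure D1:**
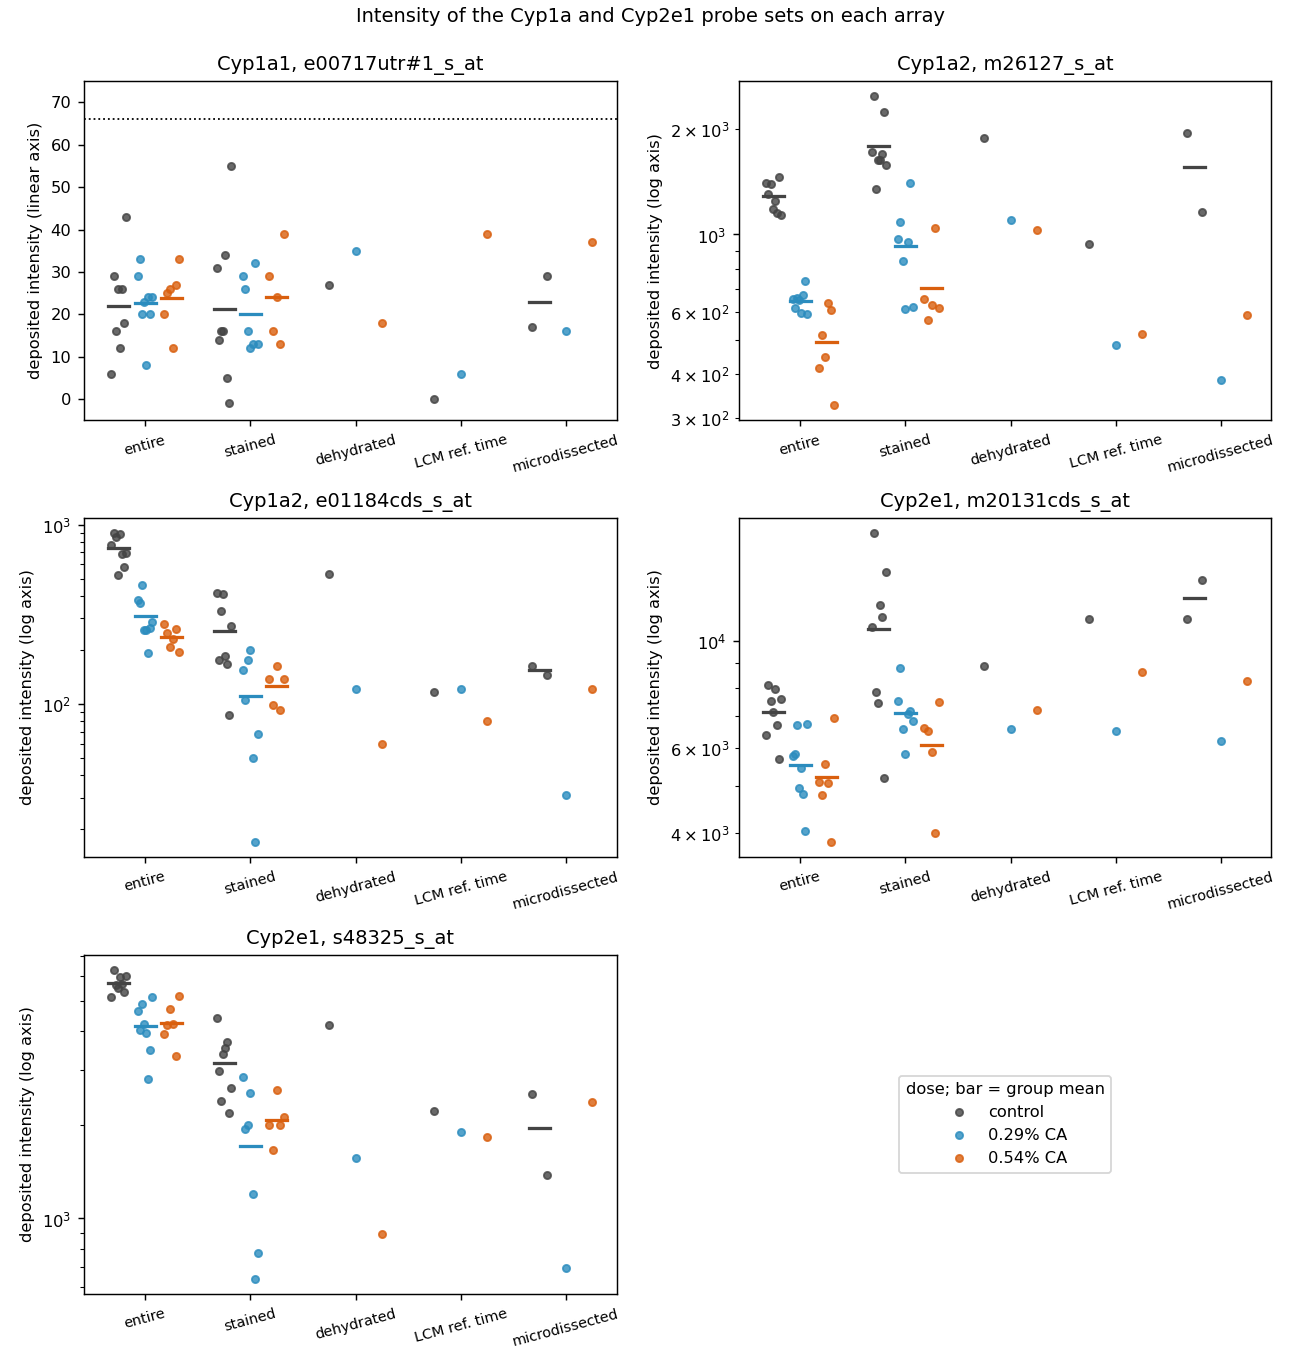
Deposited intensity of each probe set on every array by section preparation and CA dose, with a point per array and a bar for the mean of groups with more than 1 array; the axis is linear for Cyp1a1, whose dotted line marks the 75th percentile of all intensities (66), and logarithmic for the others. In entire sections both Cyp1a2 probe sets at either CA dose lie below all 8 controls, and Cyp1a1 lies between -1 and 55 on all 52 arrays.

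Cyp1a2 RNA was lower in the livers of CA-treated rats. In entire sections both of its probe sets fell at both doses, by 2.13-fold and 2.58-fold at 0.29% CA and by 2.87-fold and 3.27-fold at 0.54% CA. Sections are mixtures of cells, in which fewer cells that make a transcript and less of that transcript per cell cannot be told apart. Of all probe sets tested in entire sections, 11.2% were called at 0.29% CA in either direction and 5.69% were called lower. At 0.54% CA these shares were 15.8% and 7.74%. Against that background 3 of the 5 probe sets were called lower at 0.29% CA and 2 of the 5, both of Cyp1a2, at 0.54% CA, and none was called higher. The median log2 difference of all probe sets tested was -0.01 at each dose, and the median of the 5 was -0.42 at 0.29% and -0.14 at 0.54% CA.

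Control livers gave m26127_s_at intensities of 1135 to 1460 with a median of 1275.5 (mean 1284 ± 124, SD, n = 8). At 0.29% CA the 8 arrays read 594 to 736 with a median of 652.5 (648 ± 46.3), and at 0.54% CA the 6 arrays read 327 to 637 with a median of 483 (493 ± 119). No treated array reached the lowest control at either dose. The log2 difference from control was -1.09 ± 0.10 (SE; 95% interval -1.30 to -0.88; adjusted p = 5.46e-08, limma) at 0.29% CA and -1.52 ± 0.11 (-1.75 to -1.30; adjusted p = 6.42e-10, limma) at 0.54% CA.

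The other Cyp1a2 probe set also fell in these sections. e01184cds_s_at read 526 to 896 in controls with a median of 736.5 (738.5 ± 140, n = 8), 192 to 461 with a median of 275 at 0.29% CA (308 ± 86.9, n = 8) and 195 to 279 with a median of 240.5 at 0.54% CA (238 ± 32.4, n = 6). Again the treated arrays of both doses lay wholly below the controls. The log2 difference was -1.37 ± 0.18 (SE; interval -1.73 to -1.003; adjusted p = 7.58e-06, limma) at 0.29% CA and -1.71 ± 0.19 (-2.10 to -1.32; adjusted p = 7.33e-07, limma) at 0.54% CA. These 4 Cyp1a2 calls were kept under all 10 alternative settings and when any 1 array was left out.

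Between the doses, 4 of the 6 arrays at 0.54% CA read lower for m26127_s_at than every array at 0.29% CA, on the normalized scale. The further difference was -0.43 ± 0.11 on the log2 scale (SE; interval -0.65 to -0.21), or 1.35-fold, with an adjusted p of 0.0563 from limma, just over the threshold. Under 7 of the 10 alternative settings it passed, with adjusted p between 0.0102 and 0.0487 in limma, whereas the deposited scale gave 0.542, the fit with all 15 groups 0.383 and the replicate block 0.0957. It also passed without replicate 5 at 0.29% CA (0.0467) and without replicate 4 (0.0241) or 5 (0.0474) at 0.54% CA. For e01184cds_s_at the dose difference was -0.34 ± 0.19 (interval -0.74 to 0.05; adjusted p = 0.539, limma). Of all probe sets 1.01% were called between the doses, 79 in number and 33 to 118 with 1 array left out, and of the 5 none was (46.8% of these calls were higher at 0.54% CA, and 58.8% on the deposited scale), so a larger fall of Cyp1a2 at the higher dose was not settled at this number of arrays.

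In entire sections 1 of the Cyp2e1 probe sets was called, at the lower dose only. s48325_s_at fell by 1.33-fold at 0.29% CA. It read 5143 to 6293 in controls with a median of 5653.5 (5698 ± 379, n = 8), 2800 to 5136 with a median of 4136 at 0.29% CA (4150.5 ± 768, n = 8), and 3328 to 5196 with a median of 4200.5 at 0.54% CA (4258 ± 643, n = 6). All 8 deposited readings at 0.29% CA were thus below the lowest control, while on the normalized scale 7 of the 8 were. The log2 difference was -0.42 ± 0.11 (SE; interval -0.65 to -0.18; adjusted p = 0.0171, limma) at 0.29% CA and -0.14 ± 0.12 (-0.39 to 0.11; adjusted p = 0.5, limma) at 0.54% CA. The call at 0.29% CA was lost on the deposited scale (adjusted p = 0.0557, limma) and with all 15 groups in the fit (0.158). The 2 doses were not called apart for this probe set, at 0.27 ± 0.12 on the log2 scale (adjusted p = 0.412, limma). The contrast between the doses depended on the scale: on the deposited scale the difference from control at 0.54% CA was -0.43 ± 0.16 (adjusted p = 0.0972, limma), close to the -0.48 ± 0.15 at 0.29% CA, and the doses differed by 0.05.

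The other Cyp2e1 probe set was not called in entire sections. m20131cds_s_at read 5706 to 8089 in controls with a median of 7312 (7129 ± 821, n = 8), 4035 to 6712 with a median of 5616 at 0.29% CA (5536.5 ± 924, n = 8) and 3836 to 6932 with a median of 5097.5 at 0.54% CA (5218 ± 1017, n = 6). Its groups overlapped. The log2 difference from control was -0.16 ± 0.10 (SE; interval -0.37 to 0.05; adjusted p = 0.397, limma) at 0.29% CA and -0.05 ± 0.11 (-0.28 to 0.18; adjusted p = 0.848, limma) at 0.54% CA. Because this probe set is among the brightest, quantile normalization ties its value closely to its rank. With each array's deposited values only centred on their median, its differences were -0.37 ± 0.16 (adjusted p = 0.198, limma) and -0.46 ± 0.17 (adjusted p = 0.0941, limma), again not called.

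Cyp1a1 gave no reading that stood clear of dim probe sets. e00717utr#1_s_at lay between -1 and 55 on the 52 arrays with a median of 23.5, and on 0 arrays above 66, the 75th percentile of all intensities. In entire sections the means were 22 ± 11.5 in controls (n = 8), 22.6 ± 7.37 at 0.29% CA (n = 8) and 23.8 ± 7.14 at 0.54% CA (n = 6). The groups overlapped throughout, with a log2 difference of 0.14 ± 0.33 (SE; interval -0.55 to 0.83) at 0.29% CA and 0.22 ± 0.36 (-0.53 to 0.96) at 0.54% CA, and adjusted p-values of 0.871 and 0.762 from limma. Stained sections gave means of 21.2 ± 18.0 in controls (n = 8), 20.1 ± 8.55 at 0.29% CA (n = 7) and 24.2 ± 10.4 at 0.54% CA (n = 5), and the 4 microdissected samples read 17 and 29 in controls, 16 at 0.29% and 37 at 0.54% CA. No comparison called this probe set. At such intensities the array number and background allow no statement on whether the gene was expressed.

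**Figure D2:**
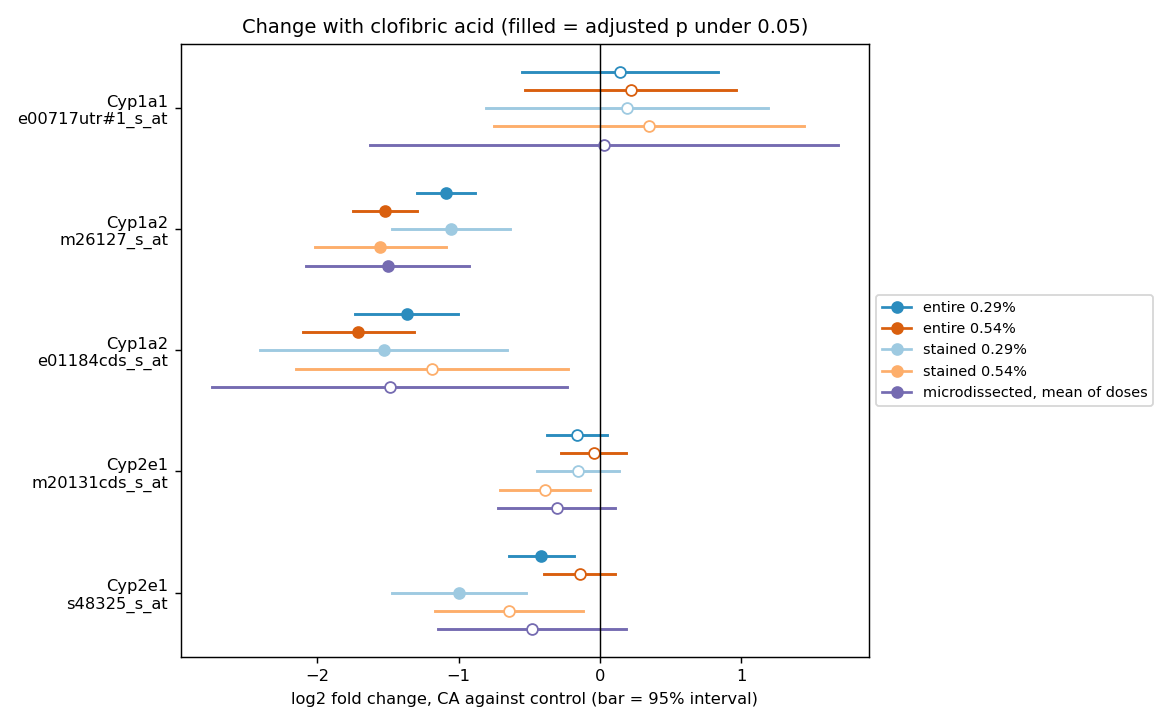
Log2 difference of CA from control on the normalized scale for each probe set, with 95% intervals from limma, in entire and stained sections at each dose and in microdissected liver with the doses averaged; filled points have an adjusted p under 0.05. Cyp1a2 m26127_s_at lies between -1.05 and -1.55 and is filled in all 5 comparisons, while the intervals of Cyp1a1 reach across 0 in each.

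Cyp1a2 signal was lower with CA in stained sections too. In these 20 arrays 3.61% of all probe sets were called at 0.29% CA and 1.78% were called lower, and 6.31% and 3.18% at 0.54% CA. Of the 5 probe sets 3 were called lower at 0.29% CA and 1 at 0.54% CA. m26127_s_at was the one called at both doses. It read 1345 to 2472 in controls with a median of 1663.5 (1787.5 ± 373, n = 8), 613 to 1402 with a median of 951 at 0.29% CA (926 ± 274, n = 7), and 654, 571, 630, 1041 and 617 at 0.54% CA (703 ± 192, n = 5). On the normalized scale no treated array reached the controls, and the fall was 2.08-fold at 0.29% CA (log2 -1.05 ± 0.20, SE; interval -1.48 to -0.63; adjusted p = 0.00272, limma) and 2.94-fold at 0.54% CA (-1.55 ± 0.22; -2.02 to -1.09; adjusted p = 9.88e-05, limma). The GAPDH 3' to 5' ratio moved with dose here, with a median of 10.2 in controls, 7.32 at 0.29% CA and 4.47 at 0.54% CA. With it as a covariate m26127_s_at was still called, at -0.91 (adjusted p = 0.0055, limma) and -1.31 (adjusted p = 0.000714, limma).

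The fall of e01184cds_s_at in stained sections was less firm. It read 87 to 414 in controls with a median of 228.5 (255 ± 121, n = 8), 17 to 200 with a median of 105 at 0.29% CA (110 ± 68.9, n = 7), and 138, 98, 162, 92 and 138 at 0.54% CA (126 ± 29.7, n = 5). Treated and control arrays overlapped. The log2 difference of -1.53 ± 0.42 (SE; interval -2.41 to -0.66) at 0.29% CA was called with an adjusted p of 0.0455 from limma. That call was lost in 10 of the 15 fits that left out 1 array, with adjusted p from 0.019 to 0.102; it was kept without control replicate 7 or without replicate 1, 3, 4 or 7 at 0.29% CA. It was also lost without the arrays in doubt (0.0917), with the replicate block (0.0554) and on the deposited scale (0.0553). At 0.54% CA the difference was -1.19 ± 0.46 (interval -2.15 to -0.23; adjusted p = 0.152, limma).

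Of the Cyp2e1 probe sets 1 was called in stained sections. s48325_s_at fell by 1.99-fold at 0.29% CA, from 2189 to 4418 in controls with a median of 3180.5 (3153 ± 746, n = 8) to 641 to 2850 with a median of 1941 (1705 ± 856, n = 7). The log2 difference was -0.996 ± 0.23 (SE; interval -1.47 to -0.52; adjusted p = 0.0127, limma), and all 7 normalized treated values lay below the controls, although the deposited ones overlapped. At 0.54% CA it read 2000, 1660, 2591, 2004 and 2125 (2076 ± 336, n = 5). There the difference of -0.65 ± 0.25 (interval -1.17 to -0.12) was not called (adjusted p = 0.151, limma), though again no normalized value reached the controls.

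m20131cds_s_at read 5208 to 16705 in stained controls with a median of 10962 (10601 ± 3716, n = 8), 5821 to 8780 with a median of 7067 at 0.29% CA (7105 ± 913, n = 7), and 6589, 6508, 5882, 3991 and 7466 at 0.54% CA (6087 ± 1301, n = 5). The normalized difference was -0.16 ± 0.14 (SE; adjusted p = 0.737, limma) at 0.29% CA and -0.39 ± 0.15 (interval -0.71 to -0.07; adjusted p = 0.159, limma) at 0.54% CA. On the deposited scale the differences were -0.62 ± 0.20 (adjusted p = 0.137, limma) and -0.96 ± 0.22 (adjusted p = 0.0121, limma), so the scale decided the call at 0.54% CA. Between the doses 0.0632% of all probe sets and none of the 5 were called in stained sections, with m26127_s_at at -0.50 ± 0.23 (interval -0.97 to -0.02; adjusted p = 0.951, limma).

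Whether staining altered the CA response was asked with the difference of the CA effects, stained minus entire. At 0.29% CA 0.0855% and at 0.54% CA 0.134% of all probe sets were called in that test, and none of the 5 was. Of the calls at 0.29% CA 28.6% were positive, and 16.7% on the deposited scale. For m26127_s_at the difference of effects was 0.04 (interval -0.39 to 0.46) at 0.29% and -0.03 (-0.50 to 0.44) at 0.54% CA on the log2 scale. The intervals therefore allow a CA effect up to about that much larger or smaller in stained sections. The widest shift among the Cyp2e1 probe sets was that of s48325_s_at at 0.29% CA, -0.58 (interval -1.07 to -0.09), with an adjusted p of 0.851 from limma.

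In microdissected liver m26127_s_at read 1948 and 1162 in the 2 controls, 386 at 0.29% CA and 591 at 0.54% CA. With the doses averaged and the spread pooled over all 15 groups, it was 2.83-fold lower with CA (log2 -1.50 ± 0.28, SE; interval -2.08 to -0.93; adjusted p = 0.000224, limma). It was the 1 member called among the 5, where 12.9% of all probe sets were called and 7.08% were called lower (44.9% of the calls were higher with CA, and 56.7% on the deposited scale). The lone CA arrays are assumed to vary like the replicated groups. On these arrays the 5S rRNA control read 319 at 0.29% and 754 at 0.54% CA, against 97 and 285 in the controls. Their mean intensity was 110 and 185, against 164 and 136 in the controls. No microdissected array was among those left out as in doubt, so that setting did not test their quality. The GAPDH ratio was 9.22 and 14.3 in the controls, 6.20 at 0.29% and 3.02 at 0.54% CA, and with it as a covariate m26127_s_at was at -1.24 (adjusted p = 0.00115, limma). e01184cds_s_at read 163 and 145 in controls against 31 and 121 with CA (-1.49 ± 0.62; adjusted p = 0.116, limma), m20131cds_s_at 11110 and 13395 against 6209 and 8273 (-0.31 ± 0.20; adjusted p = 0.385, limma), and s48325_s_at 2515 and 1383 against 693 and 2374 (-0.48 ± 0.33; adjusted p = 0.404, limma). These 3 probe sets were thus not called, although the interval of e01184cds_s_at lay below 0 (-2.75 to -0.23), and with the GAPDH covariate it was called at -1.90 (adjusted p = 0.0375, limma). On the deposited scale m20131cds_s_at was at -0.75 ± 0.33 (adjusted p = 0.248, limma).

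Microdissected and stained liver were not called apart for any of the 5 probe sets at the mean of the 3 doses, where 12.3% of all probe sets were called (53.3% of them higher in microdissected liver, and 37.8% on the deposited scale). The interval of that difference was -0.29 to 0.37 on the log2 scale for m26127_s_at, -0.82 to 0.62 for e01184cds_s_at, -0.24 to 0.24 for m20131cds_s_at and -0.45 to 0.31 for s48325_s_at. Both Cyp1a2 and Cyp2e1 are known for their pericentral place in the liver lobule, and the labels used here do not say from which zone the microdissected regions came.

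Dehydrated and LCM-reference-time sections had 1 array per dose and no replicate check. In dehydrated sections m26127_s_at read 1886 in the control, 1099 at 0.29% CA and 1030 at 0.54% CA, and e01184cds_s_at read 534, 121 and 60 in that order. LCM-reference-time sections gave 937, 486 and 521 for m26127_s_at and 117, 121 and 80 for e01184cds_s_at. Cyp1a2 values with CA were thus below the control of the same preparation in all but e01184cds_s_at at 0.29% CA in the LCM-reference-time section. On the normalized scale that value too was below its control, by a log2 difference of -0.47. Mean array intensity was 114, 142 and 168 in LCM-reference-time and 208, 188 and 161 in dehydrated sections, in order of dose. Its part in the deposited readings was not tested. Normalized m26127_s_at differences from control were -0.72 and -0.48 in dehydrated and -1.27 and -1.66 in LCM-reference-time sections. In entire sections they were -1.09 and -1.52. For e01184cds_s_at the dehydrated differences were instead larger falls than those in entire sections at both doses. Among the Cyp2e1 probe sets, s48325_s_at read 4200, 1569 and 892 in dehydrated and 2213, 1898 and 1831 in LCM-reference-time sections. m20131cds_s_at read 8890, 6565 and 7188, and 11075, 6515 and 8607. The deposited Cyp2e1 value with CA was below that of the control in each of these 8 comparisons, which share 1 control array per preparation. On the normalized scale m20131cds_s_at differed from control by -0.07 and -0.11 in dehydrated and by -0.38 and -0.16 in LCM-reference-time sections. For s48325_s_at these differences were -1.43 and -1.89, and -0.50 and -0.84. The share of all probe sets lower on these arrays was not computed.

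Set in order of the normalized group means, m26127_s_at had its control groups ahead of its treated groups. Its 5 control groups held the first 5 of 15 places, from 11.00 in microdissected to 10.16 in entire liver, and the entire sections at 0.29% and 0.54% CA held the last ones at 9.07 and 8.64. Stained controls overlapped the LCM-reference-time and dehydrated values beside them in that order, and entire controls overlapped the dehydrated section at 0.54% CA. Single arrays overlapped further: stained sections at 0.29% CA reached 10.38, above the highest entire control at 10.33. For e01184cds_s_at entire controls came first at 9.28, clear of the dehydrated control at 8.68, and microdissected liver at 0.29% CA came last at 6.08. For m20131cds_s_at the 15 group means lay between 12.48 and 12.97, most of them overlapping their neighbours. For s48325_s_at the 3 entire-section groups held the first places at 12.48, 12.34 and 12.07, overlapping in turn, and the dehydrated section at 0.54% CA the last at 9.87. Below the entire sections, the controls of s48325_s_at held places 4, 5, 6 and 8.

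**Figure D3:**
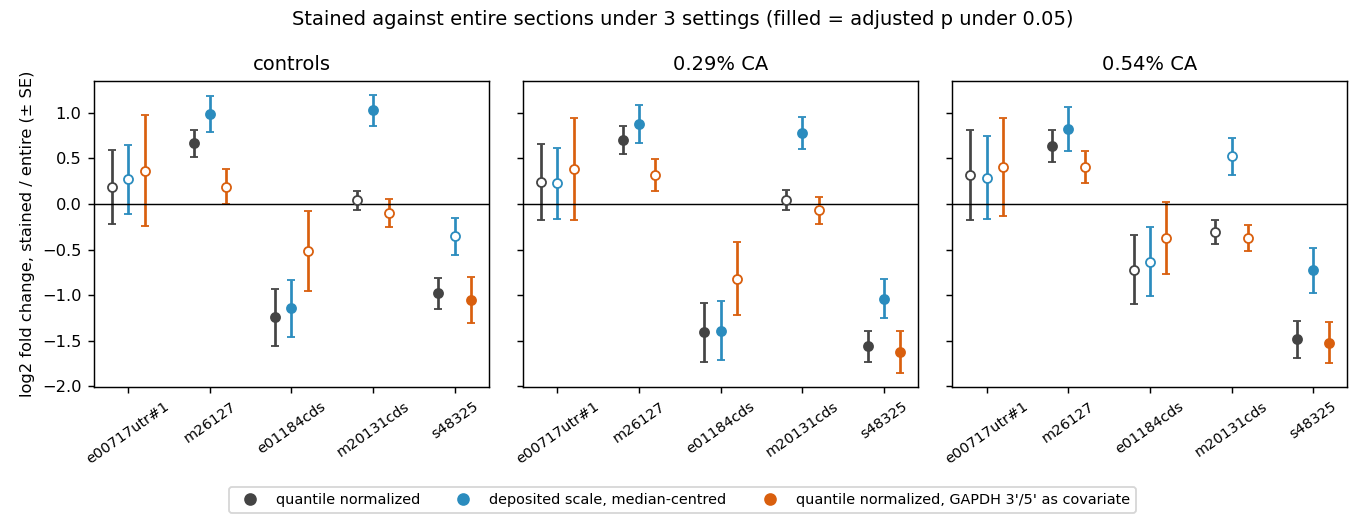
Log2 difference of stained from entire sections (± SE, limma) for each probe set, in 1 panel for controls and 1 for each CA dose, on the quantile normalized scale, on the deposited scale and with the GAPDH 3' to 5' ratio as a covariate; filled points have an adjusted p under 0.05. In each panel and under all 3 settings Cyp1a2 m26127_s_at lies above 0 and e01184cds_s_at below it, as does Cyp2e1 s48325_s_at, whereas m20131cds_s_at changes side with the setting.

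The 2 probe sets of 1 gene parted between stained and entire sections. In control livers m26127_s_at was 1.59-fold higher in stained sections while e01184cds_s_at of the same gene was 2.36-fold lower, and s48325_s_at was 1.97-fold lower while m20131cds_s_at was not called. This comparison moved much of the array: 30.2% of all probe sets were called in controls, 22.8% at 0.29% CA and 10.1% at 0.54% CA. Of the 5 probe sets 3, 3 and 2 were called in that order.

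In controls the log2 difference of stained from entire sections was 0.67 ± 0.15 for m26127_s_at (SE; interval 0.37 to 0.96; adjusted p = 0.00057, limma), with all 8 stained values above the entire ones. For e01184cds_s_at it was -1.24 ± 0.31 (-1.87 to -0.61; adjusted p = 0.0022, limma), with 7 of 8 stained values below the entire ones. For s48325_s_at it was -0.98 ± 0.17 (-1.32 to -0.64; adjusted p = 2.2e-05, limma), with all 8 below. The remaining Cyp2e1 probe set, m20131cds_s_at, differed by 0.04 ± 0.11 (-0.18 to 0.26; adjusted p = 0.849, limma).

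For those 3 probe sets the directions were the same in treated livers. m26127_s_at was higher in stained sections by 0.70 ± 0.15 at 0.29% CA (adjusted p = 0.000693, limma) and by 0.63 ± 0.18 at 0.54% CA (adjusted p = 0.0161, limma). The latter call was lost without entire replicate 1 (0.0505) or stained replicate 4 (0.0796) of that dose. s48325_s_at was lower, at -1.56 ± 0.17 (adjusted p = 2.17e-08, limma) and -1.48 ± 0.20 (adjusted p = 2.8e-06, limma). e01184cds_s_at was lower at 0.29% CA (-1.40 ± 0.32; adjusted p = 0.00133, limma), and at 0.54% CA its difference of -0.72 ± 0.38 was not called (adjusted p = 0.268, limma).

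Scale and array quality entered this contrast. The median log2 difference of all probe sets in controls was 0.09 after quantile normalization and 0.42 on the deposited scale. The share of calls that were higher in stained sections was 54.4% and 74.2%. At 0.29% CA those shares were 51.4% and 70.2%, and at 0.54% CA 48.6% and 60.6%. On the deposited scale, with each array centred on its median, m20131cds_s_at was called higher in stained controls by 1.03 ± 0.17 (adjusted p = 1.18e-05, limma). At 0.29% CA it was called higher by 0.78 ± 0.18 (adjusted p = 0.00099, limma). Its uncentred mean intensity in controls was 10601 in stained and 7129 in entire sections, so the centred difference also holds that of the array medians. On the centred scale s48325_s_at in controls was no longer called (-0.36 ± 0.20; adjusted p = 0.148, limma). With the GAPDH 3' to 5' ratio as a covariate, m26127_s_at was at 0.19 (adjusted p = 0.722, limma) in controls and e01184cds_s_at at -0.52 (adjusted p = 0.645, limma), neither of them called. The call of s48325_s_at was kept with that covariate, at -1.05 (adjusted p = 0.00832, limma). In treated livers m26127_s_at (0.32 and 0.41; adjusted p = 0.417 and 0.175, limma) and e01184cds_s_at (-0.82; adjusted p = 0.328, limma) were likewise not called with the covariate. The calls of s48325_s_at were kept. The GAPDH ratio had a median of 1.54 in entire and 8.45 in stained sections. In these fits its part and that of the preparation cannot be told apart.

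A ratio of the 2 probe sets of a gene on 1 array is free of the scaling between arrays, so it was taken from the deposited intensities. For Cyp1a2 the mean log2 ratio of m26127_s_at to e01184cds_s_at was 0.82 ± 0.30 (SD, n = 8) in entire and 2.95 ± 0.98 (n = 8) in stained controls, a 4.39-fold difference with every stained array above every entire one. For Cyp2e1 the mean log2 ratio of m20131cds_s_at to s48325_s_at was 0.32 ± 0.11 and 1.70 ± 0.51, a 2.61-fold difference, again without overlap. Two-sided exact permutation tests gave p = 0.000155 for each, the smallest that 8 against 8 arrays allow, and 0.00109 after Benjamini-Hochberg adjustment over the 14 ratio tests made. The tests took the arrays as unpaired, and these are the same arrays that showed the shifts above. How often other pairs of probe sets part in this way was not counted, and 30.2% of all probe sets were called between these controls.

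In treated livers the ratios parted likewise. At 0.29% CA the difference between stained and entire sections was 4.82-fold for Cyp1a2 (6 of 7 stained arrays above all entire ones; adjusted p = 0.00218, exact permutation) and 3.53-fold for Cyp2e1 (7 of 7; adjusted p = 0.00145, exact permutation). At 0.54% CA it was 2.74-fold and 2.38-fold, with 5 of 5 stained arrays above the entire ones and an adjusted p of 0.0101 for each by exact permutation. In contrast, none of the 8 ratio tests of CA against control passed, with adjusted p between 0.246 and 0.57 by exact permutation, so no unequal change of the probe sets of a gene under CA was detected.

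Over all doses the Cyp2e1 ratio lay between 1.07 and 1.72 on the 22 entire-section arrays and between 1.99 and 11.2 on the 20 stained ones, with no overlap. Dehydrated sections gave 2.12 to 8.06, LCM-reference-time sections 3.43 to 5.005 and microdissected liver 3.48 to 9.69. The Cyp1a2 ratio lay between 1.41 and 3.51 in entire sections, 3.07 and 82.5 in stained, 3.53 and 17.2 in dehydrated, 4.02 and 8.01 in LCM-reference-time and 4.88 and 12.5 in microdissected ones. The highest Cyp1a2 ratio rested on a single e01184cds_s_at reading of 17.

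**Figure D4:**
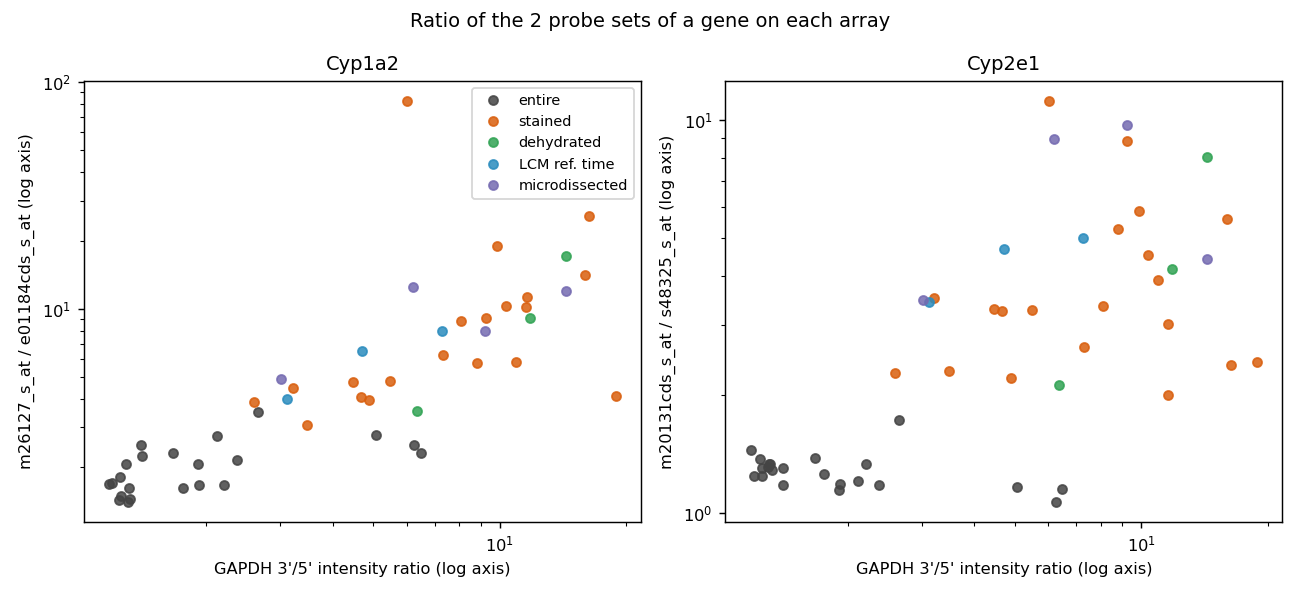
Ratio of the 2 probe sets of each gene on the same array, from deposited intensities on a log axis, against the GAPDH 3' to 5' ratio of that array, with a point per array and colours for the preparations. The 3 entire-section arrays with a GAPDH ratio above 4 have Cyp2e1 ratios of 1.07 to 1.16 and Cyp1a2 ratios of 2.32 to 2.79, below all 20 stained arrays for each gene.

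The GAPDH ratio moved with preparation, and its part in the probe set ratios was not tested. The 3 entire-section arrays with GAPDH ratios of 5.07 to 6.49 had Cyp2e1 ratios of 1.07 to 1.16 and Cyp1a2 ratios of 2.32 to 2.79. Over all 22 entire-section arrays the median ratios were 1.27 for Cyp2e1 and 1.94 for Cyp1a2. The 6 stained arrays with lower GAPDH ratios, 2.59 to 4.89, had Cyp2e1 ratios of 2.21 to 3.51 and Cyp1a2 ratios of 3.07 to 4.74. Within the GAPDH range of those 3 entire arrays lay 2 stained arrays, with Cyp2e1 ratios of 3.29 and 11.2 and Cyp1a2 ratios of 4.79 and 82.5.

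Within groups, the 4 bright probe sets were compared array by array after subtracting each group mean, with 20 correlations over entire and stained sections, their permutation p-values adjusted together. In stained sections s48325_s_at and e01184cds_s_at, which belong to different genes, varied together (Pearson r = 0.81, permutation p = 0.0003, adjusted 0.006; Spearman rho = 0.73, permutation p = 0.00122, adjusted 0.0178; n = 20 arrays). Without the 2 arrays farthest from the median r was 0.65. In entire sections the same pair gave r = -0.16 (adjusted permutation p = 0.573; n = 22) and rho = -0.23 (adjusted permutation p = 0.393). These 2 are the probe sets that read lower in stained sections.

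Probe sets of 1 gene did not vary together in stained sections. The Cyp1a2 pair gave r = -0.57 (adjusted permutation p = 0.0734) and rho = -0.45 (adjusted permutation p = 0.139), and the Cyp2e1 pair r = -0.07 (adjusted permutation p = 0.689) and rho = -0.02 (adjusted permutation p = 0.938). In entire sections the Cyp1a2 pair gave r = 0.16 (adjusted permutation p = 0.497) and rho = 0.15 (0.557). The Cyp2e1 pair there gave r = 0.44 (adjusted permutation p = 0.1; r = 0.74 without the 2 farthest arrays) and rho = 0.47 (0.139). m26127_s_at, which read higher in stained sections, rose with the GAPDH ratio in them (r = 0.59, adjusted permutation p = 0.0338; rho = 0.62, adjusted permutation p = 0.0345; r = 0.63 without the 2 farthest arrays). In entire sections e01184cds_s_at fell with the GAPDH ratio by rank (rho = -0.67, adjusted permutation p = 0.0178), while Pearson's r was -0.51 (adjusted permutation p = 0.0503; -0.35 without the 2 farthest arrays). There m20131cds_s_at followed the GAPDH ratio by Pearson (r = 0.66, adjusted permutation p = 0.0338; 0.51 without the 2 farthest arrays) but not by rank (rho = 0.46, adjusted permutation p = 0.139). Across genes in entire sections, m20131cds_s_at and m26127_s_at gave r = 0.57 (adjusted permutation p = 0.0418; 0.59 without the 2 farthest arrays) and rho = 0.57 (adjusted permutation p = 0.0548).

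The probe sets most like the brighter one of each gene over the 22 entire-section arrays were looked for among 3776 candidates, and are given as a description without a test. The closest to Cyp1a2 m26127_s_at were m93297cds_at and m33746mrna#2_f_at, each with r = 0.95 and each lower with CA. Over the 20 stained arrays, which were not used in the choice, their r with m26127_s_at was 0.60 and 0.69. The next in order, also lower with CA, gave 0.95 in entire and 0.85 in stained sections. For Cyp2e1 m20131cds_s_at the 3 highest r were 0.86, 0.83 and 0.83, with 0.14, 0.52 and 0.08 in stained sections. For Cyp1a1 e00717utr#1_s_at they were 0.71, 0.71 and 0.67, with 0.09, 0.23 and 0.39 in stained sections. These points share the dose groups and the normalization, so a like response to CA is enough to raise r.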

How the data were processed

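Total RNA from rat liver sections was the starting material for one-colour oligonucleotide arrays, 52 in all. The deposited table gives 1 linear intensity per probe set and array for 8799 probe sets, 59 of them controls; the sources used here do not give the authors' software, scaling or genome build. Of these intensities 55.5% lay under 20. Values under 4, the 10th percentile of positive intensities, were raised to 4, and log2 values of the 8740 non-control probe sets were quantile normalized between all arrays. Groups were compared with limma 3.58.1 (lmFit, eBayes, two-sided) in R 4.3.3, with Benjamini-Hochberg adjustment over probe sets that exceeded 4 on 1 or more of the arrays fitted. The 3 entire groups and the 3 stained groups were each fitted together, their contrast used all 6, and microdissected samples all 15 groups. The procedure was tested on simulated data. Permutation tests used SciPy 1.17.1 (Python 3.11.15), and plots matplotlib 3.10.9. The number of arrays limits the precision.

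Members, lists and tests were chosen with earlier results of these data known. All 5 members were named in the text, with the most correlated probe sets by Pearson r over entire sections. Lists of pathway genes and cell type markers, set by symbol, could not be used, because the table has no gene names and 0 accessions in the IDs matched the RefSeq gene table. Alternatives tried were deposited values centred by array, normalization before the floor, a floor of 20, only probe sets above the 75th percentile, other groups in the fit, the replicate block, array weights, a trended robust variance prior, the GAPDH ratio as covariate, omission of the 6 arrays in doubt, and of each replicate.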

Additional observations from a re-analysis of the deposited data

Results flagged for a closer look

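In 3 of 42 sets of 4 to 10 replicate values, 1 array lay apart from the others by Dixon's criterion, which chance meets in about 1 of 20 sets. In entire controls replicate 7 was the highest of 8 for both Cyp2e1 probe sets on the normalized scale, at a log2 intensity of 13.27 for m20131cds_s_at and 12.97 for s48325_s_at. Its deposited intensities of 5706 and 5357 were instead the lowest and the second lowest of the 8 controls. This array had a GAPDH 3' to 5' ratio of 6.25, against a median of 1.54 in entire sections. The Cyp1a1 probe set e00717utr#1_s_at had its lowest normalized value of the 8 entire sections at 0.29% CA in replicate 5, at 2.59 with a deposited intensity of 8, within the range of dim signal.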

How the results depend on the processing

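Of 637 log2 differences recomputed under the 10 alternative settings, 583 kept direction and side of the threshold, 11 lost a call, 14 gained a call and 29 changed sign. Of 1040 log2 differences with 1 replicate left out, the counts were 964, 12, 3 and 61. Each sign change was of a difference not called, and where no cause is named it was not tested. Of the 5 members, called between the doses in entire sections were 0, and 1 with normalization before the floor, a floor of 20, the 75th percentile filter, array weights, the trended prior, the GAPDH covariate or without the arrays in doubt. For 0.54% CA in stained sections 1 was called, 2 on the deposited scale and 4 with all groups in the fit. With the GAPDH covariate 1 was called between stained and entire sections at each dose, in place of 3, 3 and 2, and 2 in microdissected CA against control, in place of 1. With 1 replicate left out the count ranged from 0 to 1 between doses in entire sections and from 1 to 2 for stained against entire at 0.54% CA.

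Log2 differences that changed sign follow by setting. With array weights, e00717utr#1_s_at was at -0.036 between doses in entire sections; the difference of the CA effects (stained minus entire) at 0.29% was -0.064 for e00717utr#1_s_at, -0.0100 for m26127_s_at and 0.071 for e01184cds_s_at, and at 0.54% 0.015 for m26127_s_at. Without the arrays in doubt, e00717utr#1_s_at was at -0.00080 and -0.042 between doses in entire and stained sections and -0.069 for stained against entire controls; m26127_s_at was at 0.0071 for the 0.54% difference of effects and m20131cds_s_at at 0.013 for microdissected against stained. On the deposited scale m20131cds_s_at was at -0.085 between doses in entire sections, 0.52 for stained against entire at 0.54% CA and 0.38 for microdissected against stained, where m26127_s_at was at -0.36. On that scale the 0.29% difference of effects was -0.043 for e00717utr#1_s_at, -0.11 for m26127_s_at and -0.25 for m20131cds_s_at. A floor of 20 put e00717utr#1_s_at at -0.13 and -0.057 for 0.29% and 0.54% CA in stained sections, -0.13 and -0.060 for the differences of effects and -0.23 for microdissected CA. The GAPDH covariate put m20131cds_s_at at -0.098 and -0.069 for stained against entire in controls and at 0.29% CA and 0.013 for microdissected against stained, m26127_s_at at 0.22 for the 0.54% difference of effects and e00717utr#1_s_at at -0.094 for microdissected CA.

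Leaving out 1 replicate changed the sign of these as well. The dim e00717utr#1_s_at ranged from -0.099 to 0.36 and -0.023 to 0.35 for 0.29% and 0.54% CA in entire sections, -0.14 to 0.19 between them, -0.12 to 0.46 for 0.29% CA in stained sections, -0.045 to 0.30 between doses there, -0.083 to 0.50 for stained against entire controls, -0.26 to 0.32 and -0.18 to 0.40 for the differences of effects and -0.55 to 0.61 for microdissected CA. m20131cds_s_at ranged from -0.11 to 0.011 for 0.54% CA in entire sections, -0.054 to 0.059 for the 0.29% difference of effects and -0.049 to 0.021 for microdissected against stained. m26127_s_at ranged from -0.066 to 0.18 and -0.15 to 0.043 for the differences of effects and -0.0081 to 0.079 for microdissected against stained. e01184cds_s_at ranged from -0.022 to 0.48 between doses in stained sections and -0.35 to 0.20 for the 0.29% difference of effects. The lone CA arrays of microdissected liver could not be left out.

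Whether replicate numbers pair the samples was not settled. Same-numbered arrays of stained controls and stained sections at 0.29% CA deviated together with r over 0.1 in 6 of 7 pairs. For entire controls and entire sections at 0.29% CA this held in 5 of 8. For entire sections at 0.29% and stained sections at 0.54% CA it held in 0 of 5. Arrays correlated best with their own number in 3 of 7, 4 of 8 and 0 of 5 in that order. Between entire and stained sections of the same dose, r was over 0.1 in 3 of 8 pairs of controls. At 0.29% CA this was 1 of 7 and at 0.54% CA 3 of 5. Best with their own number were 1, 0 and 2 arrays in that order. In no pair of groups did every same-numbered pair pass 0.1, nor did every array correlate best with its own number. The replicate block moved m20131cds_s_at to 0.027 for microdissected against stained and e00717utr#1_s_at to -0.060 between doses in stained sections, and took the call of e01184cds_s_at at 0.29% CA in stained sections (adjusted p = 0.0554, limma). It raised the calls over all probe sets between doses in entire sections from 79 to 211.

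Other settings moved counts over all probe sets by more than 1.5 times. With all groups in the fit 539 (of 877) and 790 (of 1236) were called for 0.29% and 0.54% CA in entire sections, 546 (of 286) and 964 (of 499) in stained sections. Array weights gave 1933 for 0.54% CA in entire sections. Between doses in entire sections the count of 79 became 34 (deposited scale), 132 (floor of 20), 41 (all groups) and 331 (weights), and in stained sections 5 ranged from 1 to 19. The GAPDH covariate gave 301 for 0.54% CA in stained sections and 400, 345 and 549 for stained against entire, in place of 2475, 1868 and 830, of which the deposited scale gave 3798 in controls and the 75th percentile filter 1333 and 1165 in the first pair. Differences of effects ranged from 0 to 17 and 0 to 30. For microdissected CA 1069 became 312 (deposited), 416 (filter), 477 (fewer groups) and 335 (weights), and for microdissected against stained 1027 became 664 (floor of 20), 207 (filter), 558 (fewer groups) and 1697 (without arrays in doubt). Leaving out 1 array moved the count of 79 to 47, 47, 45 and 39 (replicates 1 to 4 at 0.29% CA), 33 and 41 (replicates 2 and 5 at 0.54% CA), and without microdissected control replicate 2 the counts for microdissected CA and for microdissected against stained were 698 and 658. Signal over background limits the Cyp1a1 values.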
